A study of Mus musculus with 18 samples.

Results

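Transcript levels in mIMCD-3 cells exposed to DEAB were compared with those in cells exposed to vehicle on 6 Affymetrix Mouse Gene 1.0 ST arrays, 3 per group, out of the 18 arrays of the study. The arrays were chosen by their titles. The DEAB group received 25 µM DEAB for 24 h, and the vehicle group received 0.1% DMSO and 0.1% ethanol for 24 h. A further group of 3 arrays of the same experiment, with 25 µM DEAB and 0.01 µM tRA (all-trans retinoic acid), shared the vehicle arrays and was used for the estimate of the spread and for values given side by side. The other 9 arrays came from a separate experiment of 24 h with the RAR antagonist AGN193109. In it, 3 arrays had 1 µM AGN193109, 3 had 1 µM AGN193109 and 0.2 µM tRA, and 3 had their own vehicle (0.1% DMSO and 0.1% ethanol). The arrays with AGN193109 and tRA served for the estimate of the spread in fits that took in this experiment. In both experiments the medium held 1% fetal calf serum at the time of treatment, and each replicate number marked an independent biological experiment. mIMCD-3 is a single mouse line of the inner medullary collecting duct, derived from a mouse that carried a simian virus oncogene, so the replicates were repeats of 1 line and not separate animals.

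DEAB, 4-(diethylamino)benzaldehyde, is an inhibitor of aldehyde dehydrogenases, among them the retinaldehyde dehydrogenases that oxidize retinaldehyde to tRA. tRA binds the retinoic acid receptors (RARs), which sit with retinoid X receptors on retinoic acid response elements near their target genes and, when bound by tRA, recruit coactivators. In the kidney, retinoic acid is known for its part in branching of the ureteric bud, from which the collecting duct forms. The comparison addressed which transcripts of these cells changed when this oxidation was inhibited. tRA already present in the medium would bypass that step, and DEAB also acts on other aldehyde dehydrogenases.

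The 9 arrays of the DEAB experiment were much alike, with medians of 7.48 to 7.51 (log2 scale) and correlations between arrays of 0.993 to 0.9962, and no arrays were identical. Levels are log2 values of the Robust Multichip Average (RMA). They depend on the probes of each transcript cluster, so differences are drawn here only between groups and not between genes. The rank of a level among all clusters serves only as a rough mark of dim clusters. Epithelial markers were present: Cdh1, which encodes E-cadherin, averaged 12.88 with DEAB and 12.91 with vehicle, and the mean level over the 15 epithelial markers lay between 12.18 and 12.23 on the DEAB arrays and between 12.15 and 12.26 on the vehicle arrays. Of 19 principal cell markers, 7 were under the 30th percentile of all clusters, and Aqp2, the vasopressin-regulated water channel of principal cells, averaged 8.03 with DEAB and 8.01 with vehicle. No member of the lists of epithelial (15), principal cell (19), intercalated cell (15), proximal tubule and loop of Henle (12), or podocyte, endothelial, stromal and blood cell markers (20) was called in either direction at an adjusted p under 0.05, as 0.303% of all clusters were. In bulk RNA, fewer expressing cells and less RNA per cell cannot be told apart.

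Most clusters called with DEAB were lower. The paired test in limma, with replicate number as a block, called 66 of 23410 clusters lower with DEAB (0.282%) and 5 higher (0.0214%) at an adjusted p under 0.05. The 66 clusters stood for 62 genes, because 5 of them belonged to Tns1. Among them, 14 clusters were at least 2-fold lower and 39 were less than 1.5-fold lower, with a median log2 fold change of -0.53, against a median of -0.00013 over all clusters tested. At an unadjusted p under 0.05 there were 977 lower (4.17%) and 894 higher clusters (3.82%). Every one of the 66 was lower with DEAB in all 3 replicate pairs, which 13.9% of all clusters were, and on 52 of them the DEAB and vehicle arrays did not overlap, which held for 3.61% of all clusters. The 5 higher clusters were higher in all 3 pairs, which 11.3% of all clusters were, and on 4 of them the groups did not overlap, which held for 3.27%. The calls were made on these same pairs of arrays, so these counts describe the called clusters and are no separate support for the calls.

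The number of calls depended on the pairing and on single arrays. Without the block, 8 clusters were called lower (0.0342%) and 0 higher (0%), with 948 clusters (4.05%) at an unadjusted p under 0.05 in that fit, 439 of them lower and 509 higher. These 8 were Ppbp, Sprr1a, Itga2, Plekhs1, Sorcs2, Sik1, Gsr and Zfp36l1. The count of clusters called lower was 37, 26 and 34 without DEAB replicate 1, 2 and 3, and 28, 25 and 25 without vehicle replicate 1, 2 and 3. It was 42 without DEAB+tRA replicate 1. The 21 clusters called in each of the 9 fits that left out 1 array were those of Ppbp, Sprr1a, Itga2, Ebf1, Plekhs1, Cpm, Csn3, Klhdc7a, Sorcs2, Npr3, Rida, Tinag, Map3k7cl, Sik1, Upk3b, Cxcl10 and Gsr, and 4 of Tns1, and the other 50 lost their call at least once.

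**Figure D1:**
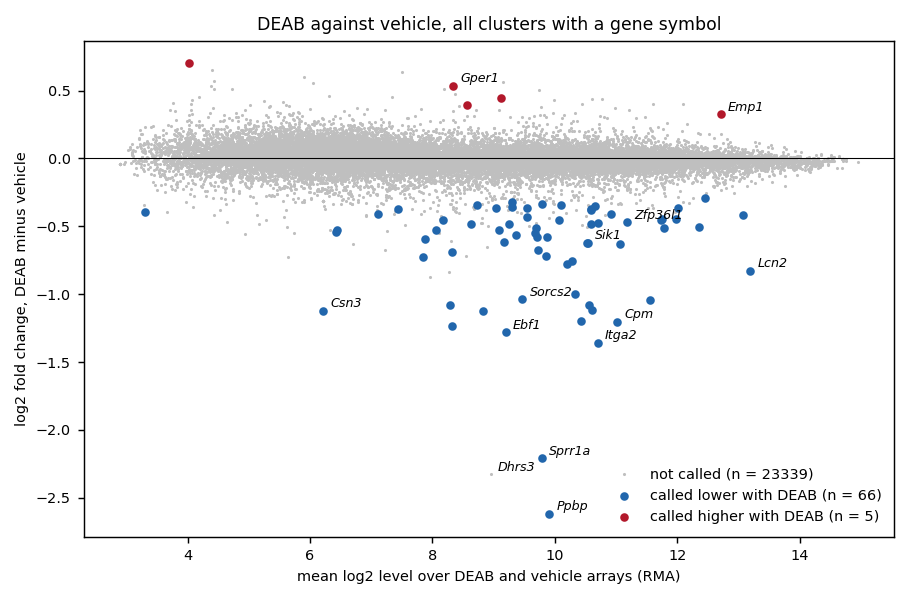
Log2 fold change (DEAB minus vehicle) of each of the 23410 clusters with a gene symbol against its mean log2 level over the 6 DEAB and vehicle arrays. The 66 clusters called lower reach -2.62 (Ppbp), and the 5 called higher stay at 0.70 or below. Dhrs3, at -2.33, is among the clusters not called.

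The largest fall was that of Ppbp (chr5:90768518-90770063, GRCm38), which encodes pro-platelet basic protein, a chemokine of the CXC family that attracts neutrophils. Ppbp was at 8.89, 8.45 and 8.46 on the DEAB arrays of replicates 1, 2 and 3, against 11.58, 11.06 and 11.01 on the vehicle arrays. The groups lay more than 2 log2 units apart on every pair. Its log2 fold change was -2.62 ± 0.07 (SE, n = 3 pairs), which is 6.15-fold lower with DEAB (adjusted p = 3.15e-05), and it was the only cluster called under every alternative setting that was run.

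The promoter of Ppbp is shown because it was the only one, among the 48 of 62 lower genes with a promoter in the RefSeq table, that held a DR5 motif, a direct repeat of the retinoid receptor hexamer spaced by 5 bases, on either strand. Of all 27025 genes with a promoter in that table, which runs from 250 bases before to 50 bases after a start site, 0.115% held a DR5. Sites outside this short window were not searched. From a published genome-wide list, the paper reports a DR5 for most of the genes that its PCR supported. The lack of a match here thus does not show that the other lower genes have no DR5. Promoters of Rarb and Cyp26a1, genes known as direct targets of retinoic acid in many cells, are shown for comparison. The sequences are from RefSeq (GRCm38.p6), read in the direction of transcription, with the DR5 in capitals. Ppbp lies on the plus strand at chr5:90768268-90768567, Rarb on the minus strand at chr14:16575427-16575726 and Cyp26a1 on the plus strand at chr19:37697558-37697857.
Ppbp: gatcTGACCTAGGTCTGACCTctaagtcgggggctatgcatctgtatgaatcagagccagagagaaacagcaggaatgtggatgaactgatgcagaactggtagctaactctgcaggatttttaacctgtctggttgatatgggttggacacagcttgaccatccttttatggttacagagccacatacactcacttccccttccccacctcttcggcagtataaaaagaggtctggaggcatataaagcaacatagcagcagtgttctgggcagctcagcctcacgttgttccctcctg
Rarb: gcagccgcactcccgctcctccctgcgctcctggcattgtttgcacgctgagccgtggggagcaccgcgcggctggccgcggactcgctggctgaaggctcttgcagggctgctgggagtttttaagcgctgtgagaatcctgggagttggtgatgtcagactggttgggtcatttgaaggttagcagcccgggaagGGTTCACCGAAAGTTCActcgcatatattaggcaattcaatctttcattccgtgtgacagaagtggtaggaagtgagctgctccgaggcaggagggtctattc
Cyp26a1: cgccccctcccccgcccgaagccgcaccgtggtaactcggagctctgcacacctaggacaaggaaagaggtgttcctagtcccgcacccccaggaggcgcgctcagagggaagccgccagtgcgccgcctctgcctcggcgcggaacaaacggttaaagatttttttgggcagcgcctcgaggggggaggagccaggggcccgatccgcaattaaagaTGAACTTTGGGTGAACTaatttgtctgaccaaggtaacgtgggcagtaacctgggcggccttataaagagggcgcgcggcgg
The DR5 of Ppbp, read on the opposite strand, is AGGTCAGACCTAGGTCA, in which both hexamers are AGGTCA. That exact repeat, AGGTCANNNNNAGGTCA on either strand, was held by the promoters of 3 of the 27025 genes (0.0111%). The repeat searched for has the hexamers of the Ppbp site itself, so Ppbp is among the 3 by construction. Its rarity is therefore no support for a role of the site. A DR1 (1 base between the hexamers) was found in 1 of the 48 promoters, that of Cxcl10, and in 0.263% of all genes, and a DR2 in 0 of 48 and in 0.311% of all genes. None of the 4 higher genes, all with a promoter in the table, held any of these motifs. These matches describe the letters only. Rarb and Cyp26a1 themselves were not called, with log2 fold changes of -0.11 ± 0.08 and -0.08 ± 0.06 (SE, adjusted p = 0.778 and 0.787). Both were at levels in the lowest 30 percent of clusters, so their lack of a call says little about a response.

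The next called cluster by size was that of Sprr1a, a precursor of the cornified envelope of squamous epithelia. Sprr1a was at 8.87, 8.81 and 8.36 with DEAB and at 11.16, 10.84 and 10.68 with vehicle (log2 fold change -2.21 ± 0.11, adjusted p = 0.000454). The arrays of the groups were clearly separate, and the gene was 4.62-fold lower with DEAB. Csn3, which encodes the secreted milk protein kappa-casein, was at 5.86, 5.50 and 5.61 with DEAB and at 7.18, 6.62 and 6.52 with vehicle (-1.12 ± 0.08, adjusted p = 0.00248), at levels in the lowest 30 percent of clusters. Muc20, a membrane mucin, was at 8.01, 8.33 and 8.48 with DEAB and at 8.92, 9.66 and 9.59 with vehicle (-1.12 ± 0.10, adjusted p = 0.00831). Neither gene showed any overlap between groups. Lcn2, lipocalin 2, a siderophore-binding protein known as a marker of tubular injury, was at 12.15, 13.14 and 13.04 with DEAB and at 13.26, 13.74 and 13.82 with vehicle (-0.83 ± 0.11, adjusted p = 0.039). Replicate 1 was the lowest of both groups for Lcn2. Cxcl10, a chemokine induced by interferon, fell by 0.51 ± 0.04 (adjusted p = 0.0035).

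Several called genes, grouped here by role after the calls were known, encode proteins of cell adhesion or the matrix. Most genes of the integrin, laminin and tensin list were not called (2 of 30 were, against 0.282% of all clusters, with a list median of 0.01). That list was written with earlier results of these data known, so its count is no support. Itga2 (chr13:114833081-114932100), the alpha chain of a collagen-binding integrin, was at 10.05, 10.17 and 9.84 with DEAB and at 11.55, 11.38 and 11.20 with vehicle. All DEAB arrays lay more than 1 log2 unit below all vehicle arrays, and the log2 fold change was -1.36 ± 0.07 (2.56-fold lower, adjusted p = 0.000454). Tns1, tensin 1, which links integrins to actin, has 6 clusters, of which 5 were called with log2 fold changes of -0.77 to -1.20. On the brightest of them it was at 10.55, 11.24 and 11.33 with DEAB and at 11.54, 12.33 and 12.38 with vehicle (-1.04 ± 0.04, adjusted p = 0.000167). Replicate 1 was low in both groups, and the fall within each pair was alike. The sixth cluster of Tns1, at 9.55, 9.36 and 9.03 with DEAB and at 9.26, 9.24 and 9.26 with vehicle, did not follow the others (0.06 ± 0.12, adjusted p = 0.936). Tinag, a basement membrane protein of renal tubules, fell by 0.69 ± 0.04 (adjusted p = 0.00085), and Dsg2, desmoglein 2 of desmosomes, fell by 0.44 ± 0.04 (adjusted p = 0.00844). Ctnnd2, the adherens junction protein delta-catenin, fell by 0.34 ± 0.04 (adjusted p = 0.041).

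**Figure D2:**
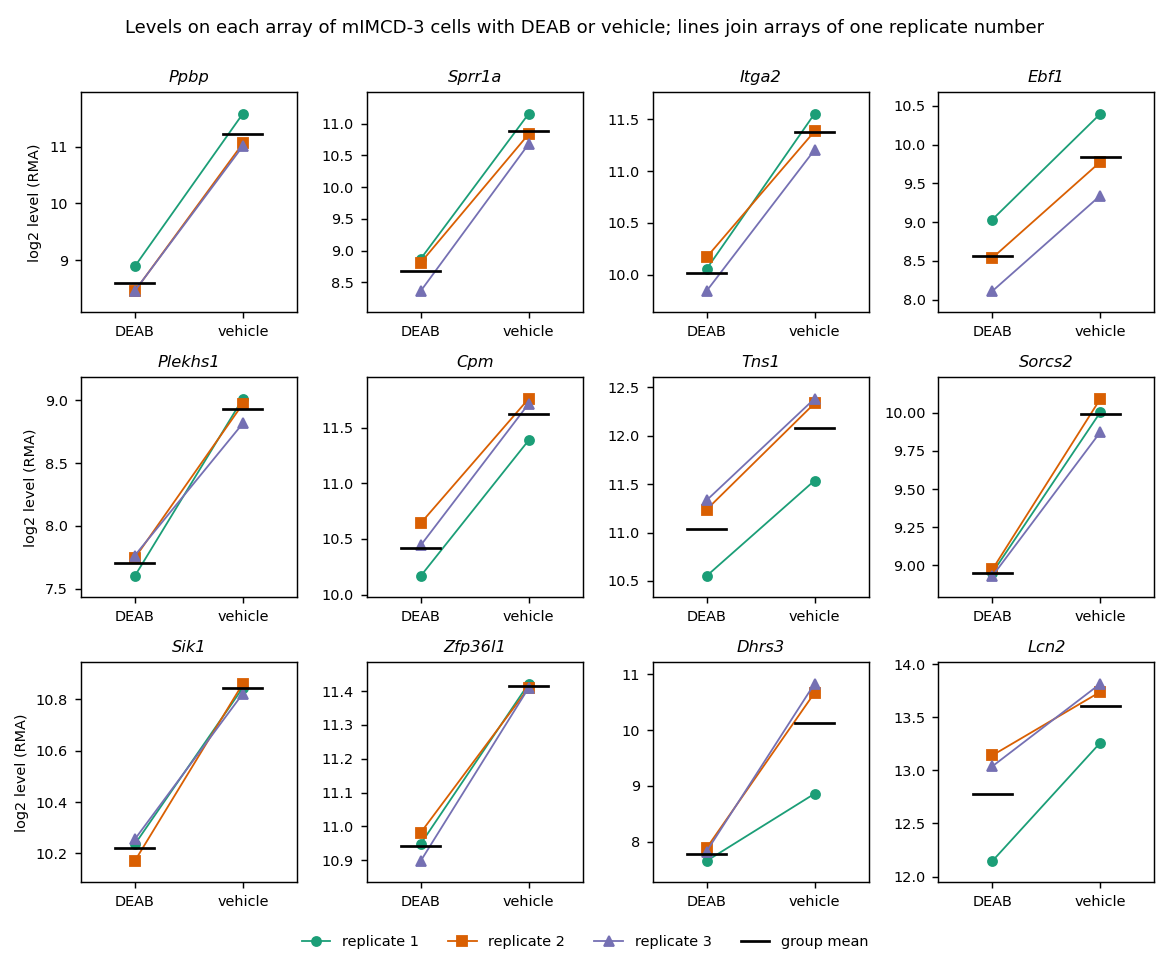
Log2 level (RMA) of 12 genes on each DEAB array (left) and vehicle array (right), with lines joining the arrays of 1 replicate number and black bars at the group means. Each axis has its own range and does not start at 0. Every line runs lower at DEAB. Replicate 1 stands low in both groups for Tns1 and Lcn2, and for Dhrs3 it stands far below the others in the vehicle group.

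Other called genes encode receptors or regulators inside the cell. Sorcs2 (chr5:36017180-36398197), a sorting receptor of the Vps10 family best known in neurons, was at 8.95, 8.97 and 8.93 with DEAB and at 10.00, 10.09 and 9.87 with vehicle. Its DEAB values lay close together and far below the vehicle values (-1.04 ± 0.05, adjusted p = 0.000605). Npr3, which clears natriuretic peptides from the cell's surroundings, was at 10.17, 9.78 and 9.56 with DEAB and at 11.12, 10.82 and 10.56 with vehicle, which is 1.99-fold lower with DEAB (SE of the log2 fold change 0.05, adjusted p = 0.000454). Gabrp, the pi subunit of the GABA-A receptor, fell by 0.73 ± 0.06, and P2ry1, a purinergic receptor, by 0.52 ± 0.06 (adjusted p = 0.00512 and 0.0179). Sik1 (chr17:31844248-31855804), a salt-inducible kinase that acts on CREB coactivators and histone deacetylases, was at 10.24, 10.17 and 10.25 with DEAB and at 10.85, 10.86 and 10.82 with vehicle (-0.62 ± 0.04, adjusted p = 0.00165). Zfp36l1 (chr12:80107760-80113013), which binds AU-rich elements and speeds mRNA decay, was at 10.95, 10.98 and 10.90 with DEAB and at 11.42, 11.41 and 11.41 with vehicle (-0.47 ± 0.04, adjusted p = 0.00483). Both were modest in size, at 1.54-fold and 1.39-fold lower, with groups well apart for their small spread. Of the 15 genes in the list of mRNA-destabilizing proteins and salt-inducible kinases, these were the 2 called lower, against 0.282% of all clusters. That list was drawn up around these genes with earlier results of these data known, so its count is no support. Their relatives Sik2 and Zfp36l2 had log2 fold changes of -0.08 and 0.22 (adjusted p = 0.697 and 0.238).

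Plekhs1, which encodes a protein with a pleckstrin homology domain, was at 7.60, 7.74 and 7.76 with DEAB and at 9.01, 8.97 and 8.82 with vehicle (-1.23 ± 0.07, adjusted p = 0.0011). Klhdc7a, a kelch domain protein, was at 7.42, 7.96 and 7.85 with DEAB and at 8.43, 9.13 and 8.89 with vehicle (-1.08 ± 0.06, adjusted p = 0.00105). The groups of both genes were separate.

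The called clusters also held genes of transcriptional regulators and secreted ligands. Ebf1 (chr11:44618100-45008096), a transcription factor known for its role in B cell commitment, was at 9.03, 8.54 and 8.11 with DEAB and at 10.40, 9.78 and 9.34 with vehicle (-1.28 ± 0.05, adjusted p = 0.000167). Its level was highest in replicate 1 and lowest in replicate 3 of each group, while the pairs fell alike. Smad3, which carries TGF-beta signals to the nucleus, was at 11.60, 11.45 and 11.45 with DEAB and at 12.06, 11.94 and 11.87 with vehicle (-0.46 ± 0.04, adjusted p = 0.00483). Sox4, a factor of progenitor cells, and Foxj1, a factor of motile cilia, fell by 0.35 ± 0.05 and 0.34 ± 0.04 (adjusted p = 0.0494 and 0.032). Among secreted ligands, Wnt9a was at 9.50, 9.52 and 9.13 with DEAB and at 10.18, 10.18 and 9.82 with vehicle (-0.67 ± 0.05, adjusted p = 0.00455). In the mouse kidney its relative Wnt9b is the ureteric bud signal to the mesenchyme. Tgfb2, a TGF-beta ligand, fell by 0.36 ± 0.04 (adjusted p = 0.0217), with overlapping groups, since replicate 1 was high in both.

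Some of the called genes encode enzymes or transporters. Cpm (chr10:117629500-117687352), carboxypeptidase M, which removes basic residues from the ends of peptides at the cell surface, was at 10.17, 10.64 and 10.44 with DEAB and at 11.39, 11.76 and 11.72 with vehicle (-1.20 ± 0.05, adjusted p = 0.000167). Replicate 1 was lowest in both groups, and the groups were separate. Galns, a lysosomal sulfatase, fell by 0.76 ± 0.08 (adjusted p = 0.0212), and Rida, an imine deaminase, fell by 0.72 ± 0.04 (adjusted p = 0.000605). Tgm2, the tissue transglutaminase, a gene long known to be induced by retinoic acid, was at 9.28, 9.67 and 9.78 with DEAB and at 9.75, 10.31 and 10.42 with vehicle (-0.58 ± 0.06, adjusted p = 0.0118), with slight overlap through replicate 1 of vehicle. Cp, ceruloplasmin, a copper-bearing ferroxidase, fell by 0.62 ± 0.08 (adjusted p = 0.0325). The sodium bicarbonate cotransporter gene Slc4a4 fell by 0.45 ± 0.05 and the potassium channel gene Kcnk5 by 0.34 ± 0.04 (adjusted p = 0.0151 and 0.031).

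Glutathione genes were among the called enzymes. Gsr, glutathione reductase, which regenerates reduced glutathione, was at 12.06, 12.07 and 12.18 with DEAB and at 12.57, 12.62 and 12.64 with vehicle (-0.50 ± 0.04, adjusted p = 0.00319). The groups did not overlap. The mu-class glutathione S-transferase genes Gstm1, Gstm2 and Gstm3 fell by 0.41 ± 0.05, 0.44 ± 0.04 and 0.49 ± 0.04 (adjusted p = 0.039, 0.0118 and 0.00482). These genes are close copies of each other, so the share of each in the signal is uncertain. The groups overlapped for Gstm1 and Gstm2 but not for Gstm3. Their calls were lost in 7 (Gstm1), 5 (Gstm2) and 2 (Gstm3) of the 9 fits that left out 1 array. In all, 4 of 33 measured genes of the glutathione and NRF2 list were called lower and 0 higher, against 0.282% and 0.0214% of all clusters, with a list median of -0.02. This list, too, was written with earlier results of these data known, so its count is no support. Osgin1, a target of the stress-response factor NRF2 in other cells, was not called (-0.38, adjusted p = 0.0648).

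**Figure D3:**
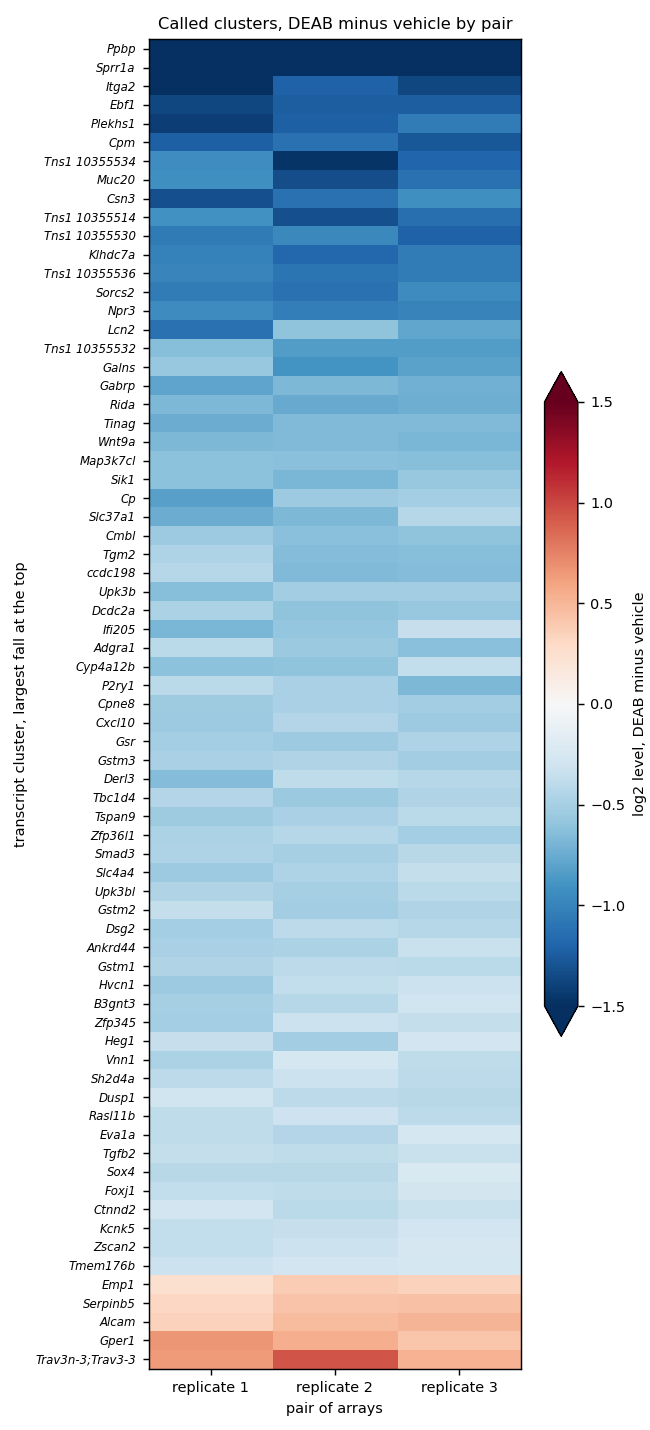
Difference in log2 level, DEAB minus vehicle, within each replicate pair (columns) for the 71 called clusters (rows, by gene symbol, largest fall at the top; the numbers after Tns1 are its clusters). The colour scale stops at 1.5 in both directions, so Ppbp and Sprr1a lie beyond it. All 66 rows called lower are below 0 and all 5 called higher are above 0 in each of the 3 pairs.

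The rises were few and small. Gper1, a membrane receptor for estrogen coupled to G proteins, was at 8.48, 8.69 and 8.66 with DEAB and at 7.82, 8.15 and 8.24 with vehicle (0.54 ± 0.06, adjusted p = 0.0227). Alcam, an adhesion molecule of the immunoglobulin family, was at 9.11, 9.36 and 9.55 with DEAB and at 8.77, 8.89 and 9.04 with vehicle (0.44 ± 0.05, adjusted p = 0.031). Neither gene overlapped between groups. Serpinb5, maspin, a serpin of epithelial cells, was at 9.11, 8.87 and 8.32 with DEAB and at 8.79, 8.43 and 7.88 with vehicle (0.40 ± 0.05, adjusted p = 0.0439), and the replicates differed by more than the groups. Emp1, epithelial membrane protein 1, was at 12.98, 12.84 and 12.80 with DEAB and at 12.73, 12.46 and 12.45 with vehicle (0.32 ± 0.04, adjusted p = 0.0452). The fifth rise was a dim cluster shared by the T cell receptor segments Trav3n-3 and Trav3-3 (0.70 ± 0.08), at 4.43, 4.59 and 4.09 with DEAB and 3.79, 3.65 and 3.57 with vehicle.

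For the genes that make, carry and read retinoic acid, the counts stand beside the shares of all clusters, of which 0.303% were called in either direction and 7.99% had an unadjusted p under 0.05. Of the 20 aldehyde dehydrogenase genes, the enzyme family that DEAB inhibits, 0 were called and 0 had an unadjusted p under 0.05, with a median log2 fold change of -0.01. Aldh1a2, which makes tRA in the embryo, averaged 10.17 with DEAB and 10.21 with vehicle, and Aldh1a3 averaged 7.86 with DEAB and 7.75 with vehicle. Of the 26 genes for retinoid synthesis and reduction, 13 for retinoid transport, binding and breakdown, and 14 for receptors and cofactors, 0 were called, which in lists of this length does not set them apart. In the last list 0 genes reached an unadjusted p under 0.05, and Rara and Rarg averaged 10.28 and 10.33 with DEAB, against 10.28 and 10.31 with vehicle.

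Dhrs3 stood out from these lists by its size. It encodes a retinaldehyde reductase that is induced by retinoic acid and returns retinaldehyde to retinol. Dhrs3 was at 7.66, 7.89 and 7.83 with DEAB and at 8.86, 10.66 and 10.83 with vehicle. The groups did not overlap, but vehicle replicate 1 stood well below the other vehicle arrays, and the log2 fold change of -2.33 ± 0.33 missed the threshold (adjusted p = 0.0577). It was called without DEAB replicate 1 (-2.86 ± 0.09, adjusted p = 0.000908), and over its alternatives that were called the adjusted p ran up to 0.0279. Stra6, the cell-surface receptor for retinol-binding protein and itself a retinoic acid response gene, averaged 8.55 with DEAB and 9.03 with vehicle and was not called either (-0.48, adjusted p = 0.0867). Among 29 measured genes that retinoic acid induces in other cells, Tgm2 was the 1 called (0.282% of all clusters were called lower), and the list median was -0.02. Developmental genes tied to retinoic acid in other systems were Bmp7 (-0.38 ± 0.06, adjusted p = 0.0905), Foxa1 (-0.15 ± 0.04, adjusted p = 0.34), Pax2 (-0.01 ± 0.06, adjusted p = 0.966) and Wnt7b (0.02 ± 0.04, adjusted p = 0.922), and none of these was called. Clca3b, of the family of chloride channel accessory proteins, was at 8.28, 7.67 and 7.62 with DEAB and at 9.39, 8.61 and 8.07 with vehicle, and it also missed the threshold (-0.83 ± 0.15, adjusted p = 0.115), but was called without DEAB replicate 3 (-1.05 ± 0.08, adjusted p = 0.0176). By PCR on the RNA of the arrays, the paper reports Dhrs3 and Clca3b (there Clca4) as significantly lower with DEAB. Its pilot PCR found Bmp7 and Foxa1 lower with DEAB, and no significant change of Pax2 and Wnt7b. For Dhrs3, Clca3b, Bmp7 and Foxa1, the missing call thus does not show a missing response.

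In the remaining gene lists, most members were not called, and the share of all clusters was 0.282% called lower and 0.0214% called higher. No list was tested, and all lists were written with earlier results of these data known. TGF-beta and BMP signaling had 2 of 35 called lower (Smad3 and Tgfb2), ureteric bud and kidney development 2 of 39 (Wnt9a and Sox4), and immediate early genes and ERK feedback 1 of 35 (Dusp1, a phosphatase of MAP kinases). Squamous and cornified epithelium had 2 of 32 called lower (Sprr1a and Dsg2) and 1 higher (Serpinb5), with a median of 0.02. Other squamous genes had positive values that were not called, such as Gsdma (0.47, adjusted p = 0.1) and Anxa8 (0.51, adjusted p = 0.284). The chemokine and interferon list had 3 of 35 called lower (Ppbp, Cxcl10 and Ifi205) and a median of -0.12. The list of the unfolded protein and integrated stress response had 1 of 34 called lower (Derl3, a protein of endoplasmic reticulum degradation). Of its 34 genes, 30 were below 0, with a median of -0.10, against 11727 of 23410 clusters below 0 in all. Signs were uneven in other lists too. Below 0 were 10 of 12 housekeeping genes and 25 of 35 chemokine and interferon genes, and 13 of 15 intercalated cell markers were above 0. The sign count therefore does not set the stress response list apart. Hspa5, the chaperone BiP, averaged 13.19 with DEAB and 13.37 with vehicle (adjusted p = 0.234). No gene was called, against 0.303% of all clusters, among 13 of the EGF receptor family and its ligands, 39 of hypoxia and glycolysis, 20 of cholesterol synthesis, 37 of the cell cycle and 12 housekeeping genes.

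**Figure D4:**
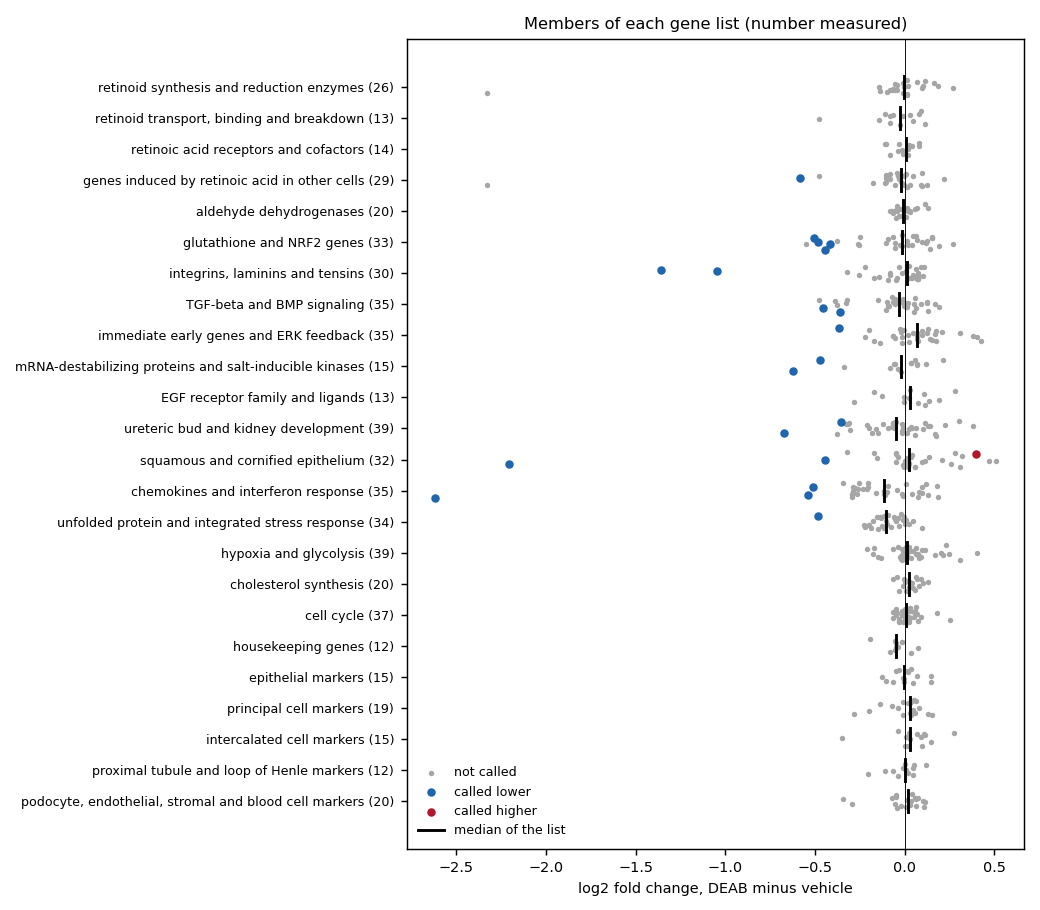
Log2 fold change (DEAB minus vehicle) of every measured gene in 24 gene lists, with the number measured in parentheses, grey points for genes not called, coloured points for called genes and a black bar at the list median. The medians lie between -0.12 and 0.07, and the points farthest to the left are Ppbp, Dhrs3 (not called, on 2 lists) and Sprr1a.

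The cells that received tRA together with DEAB shared the vehicle arrays with the DEAB comparison, and their values are given beside it without a further test of the pattern. Ppbp was at 12.51, 12.04 and 11.76 with DEAB+tRA, which averages 0.89 ± 0.07 above vehicle (adjusted p = 0.026). Sprr1a was at 12.74, 12.08 and 11.87 with DEAB+tRA, 1.34 ± 0.11 above vehicle (adjusted p = 0.026). Npr3 was at 11.65, 11.46 and 11.21 with DEAB+tRA, 0.60 ± 0.05 above vehicle (adjusted p = 0.026). Gabrp averaged 0.69 ± 0.06 above vehicle with DEAB+tRA (adjusted p = 0.0403). These genes were thus below vehicle with DEAB alone and above it with tRA added. They were the 4 called with DEAB+tRA among the 66 clusters called lower with DEAB, where 0.0171% of all clusters were called higher. Other clusters called lower with DEAB lay near vehicle with DEAB+tRA, as Klhdc7a (0.04) and Tmem176b (0.01) did. Some stayed below it, such as Vnn1 (-0.24) and Cmbl (-0.13). These last differences were not called (adjusted p = 0.827, 0.915, 0.265 and 0.515). Itga2 averaged 11.70 ± 0.13, Cpm 12.03 ± 0.19, Sorcs2 10.23 ± 0.04 and Sik1 11.12 ± 0.03 (SD, n = 3) with DEAB+tRA, and their differences from vehicle of 0.32, 0.41, 0.24 and 0.28 were not called (adjusted p = 0.268, 0.0933, 0.291 and 0.152). Dhrs3 was at 9.99, 11.56 and 11.86 with DEAB+tRA, with replicate 1 again the lowest. Serpinb5, which rose with DEAB, was at 8.00, 7.88 and 7.18 with DEAB+tRA, with a log2 fold change of -0.68 ± 0.05 relative to vehicle (adjusted p = 0.026).

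The closest comparison of the study was that of 1 µM AGN193109, an antagonist of all RARs, with its own vehicle for 24 h, on other arrays. Of the 66 clusters called lower with DEAB, 65 were below 0 with AGN193109, where 43.2% of all clusters were, and 45 were called lower with it, where 0.372% of all clusters were. Their median log2 fold change was -0.79 with AGN193109. The exception was Ifi205, an interferon-inducible gene, with -0.54 ± 0.07 with DEAB and 0.02 ± 0.11 with AGN193109. The 5 clusters called higher with DEAB were all above 0 with AGN193109, and 0 of them were called there, where 0.0854% of all clusters were called higher. A single cluster (0.00427%) passed the test of the difference between both effects over 18 arrays at an adjusted p under 0.05, that of Cpm. At an unadjusted p under 0.05 in that test were 33 of the 66 lower and 1 of the 5 higher clusters, against 5.57% of all clusters. The lack of an adjusted call therefore does not show that both effects were equal. Cpm was at 9.01, 8.01 and 9.34 with AGN193109 and at 11.22, 10.56 and 11.68 on the vehicle arrays of that experiment, a log2 fold change of -2.36 ± 0.09. The AGN193109 effect minus the DEAB effect on Cpm was -1.16 ± 0.11 on the log2 scale, a larger fall with AGN193109 (adjusted p = 0.00304), and it was not called without the replicate block (adjusted p = 1). The next, for the brightest cluster of Tns1 and for Plekhs1, were -0.61 and -0.89 (adjusted p = 0.0528 and 0.0969), also with the larger fall under AGN193109. The compounds were used at different doses and in separate experiments.

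**Figure D5:**
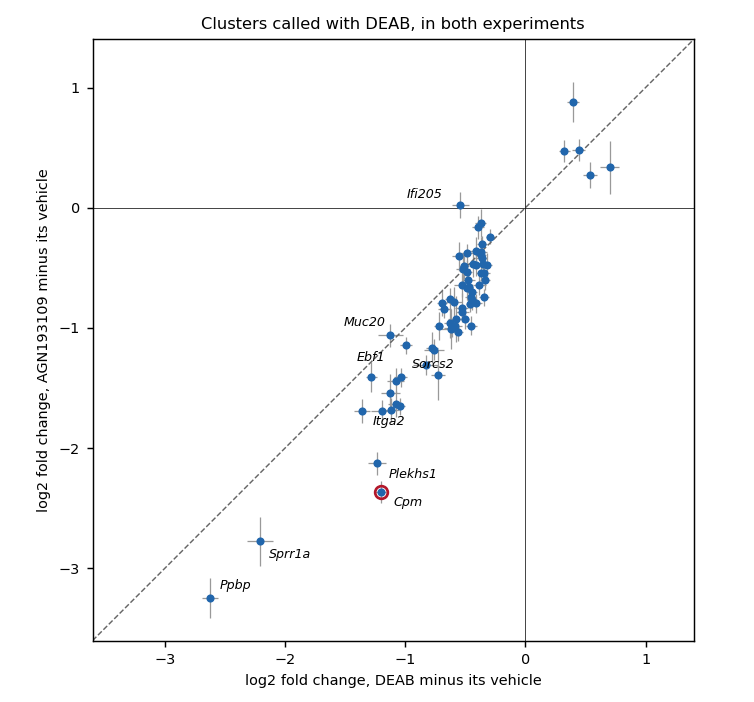
Log2 fold change of the 71 clusters called with DEAB, for DEAB minus its vehicle (horizontal axis) and AGN193109 minus its own vehicle (vertical axis), with bars of 1 SE in both directions and a dashed line of equal change. The red circle marks Cpm, at -1.20 with DEAB and -2.36 with AGN193109. Ifi205 is the 1 cluster with opposite signs.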

How the data were processed

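Total RNA of mIMCD-3 cells went onto Mouse Gene 1.0 ST arrays of Affymetrix, and the authors deposited log2 values, which per the labels were made with RMA in Affymetrix Expression Console. The version of that program is not given in the sources used. The values were used as deposited. Arrays were grouped by title, the vehicle arrays of each experiment by the number in the title. Of 35556 transcript clusters, 23410 with a gene symbol were tested (21789 with 1 symbol, 1621 with several), and RefSeq held 21698 of the single symbols. Positions are those of GRCm38.

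The 9 arrays of the DEAB experiment were fitted in R 4.3.3 with limma 3.58.1, taking a mean for each group, the replicate number as a block and moderated variances. Tests were two-sided, and p was adjusted by Benjamini-Hochberg over all clusters tested. Calls were made where that p was under 0.05. The arrays were paired by the number in their labels. Residuals of arrays of the same number correlated at 0.179 to 0.614 in 9 pairs, and those of different numbers at -0.511 to 0.312 in 18 pairs, so the ranges overlapped. Replicate 1 was set apart (0.474 to 0.614 within it). Replicate 2 was not clearly set apart from replicate 3, since DEAB+tRA replicate 2 correlated at 0.312 with DEAB replicate 3 and at 0.179 with DEAB replicate 2. Values after ± are standard errors of the log2 fold change unless given as SD. The difference between the AGN193109 and DEAB effects was an interaction contrast over 18 arrays, with the replicate number within each experiment as a block. A gene with several clusters was read from the brightest in the gene lists.

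Named genes were called clusters, Sorcs2, Sik1, Zfp36l1 and Itga2, genes of the paper's PCR, and list members with the smallest p or defining markers. Osgin1, Aldh1a2, Rara, Rarg, Sik2, Hspa5 and Anxa8 were chosen after their values were seen. The comparison and the lists were chosen with earlier results of these data known. The tests were tried on simulated data. Alternatives were no block, a random block, a repeat of quantile normalization, array medians subtracted, no dim clusters, all clusters, 6 or 18 arrays, limma with trend and robust set, and the loss of each array in turn. The loss of whole replicates was added once values had been seen. With 3 arrays per group, a permutation test could not go below p = 0.1, or 0.25 when paired, so p-values rest on the model, and the number of arrays limits the precision. Plots used matplotlib 3.10.9 (Python 3.11.15).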

Additional observations from a re-analysis of the deposited data

Results flagged for a closer look

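Cpm differed between the experiments by the interaction contrast of limma. The AGN193109 effect minus the DEAB effect was -1.16 ± 0.11 (log2, SE, adjusted p = 0.00304), from -1.20 with DEAB and -2.36 with AGN193109, each lower in 3 of 3 replicate pairs. Leaving out each of the 12 arrays of the compared groups in turn gave -1.23 to -1.06, with the difference called each time. The compounds were given in separate experiments, and the part of the experiment and that of the compound cannot be told apart.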

How the results depend on the processing

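The pairing by replicate number decided most calls. Against 66 clusters called lower and 5 higher with the block, 8 and 0 were called without it, and 24 and 2 with the replicate as a random block. The fit of only the 6 compared arrays called 24 lower and 0 higher, with fewer residual degrees of freedom. Adjustment that took in clusters lacking a symbol gave 27 and 0, leaving out dim clusters 102 and 19, and the trend and robust options 195 and 56. Quantile normalization again, subtraction of array medians and a fit of all 18 arrays kept both counts within 1.5 times. Leaving out single arrays, or all 3 arrays of 1 replicate number, gave 6 to 49 lower and 0 to 3 higher. All 71 clusters kept their sign wherever they were tested. In the 9 fits that each left out 1 array, 21 of the 71 were called every time and 50 were lost at least once. The single difference called between the AGN193109 and DEAB effects became 0 without the block, 2 without dim clusters and 4 with the trend and robust options. Of the named clusters, only the called ones and those of the paper's PCR or pilot genes were followed through the alternatives. Among these, signs turned only for 2 near 0 that were not called. The sixth Tns1 cluster lay between -0.056 and 0.229 when arrays were left out, and Pax2 between -0.0812 and 0.0399, or at 0.00143 after quantile normalization. Dhrs3 was called in 4 alternatives, Clca3b in 3 and Bmp7 in 2. The cause of these changes was not tested, apart from the smaller number of arrays or the larger number of clusters where stated.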
